A study of Rattus norvegicus with 2 samples.

Results

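The genes described here drive or restrain the cell division cycle. They are 44 genes of DNA replication, mitosis, the G1 cyclins with their kinases, the cyclin-dependent kinase (CDK) inhibitors and the RB and E2F proteins, taken by gene symbol from a rat expression table of 18049 genes, in which all 44 were found. The table compares rat oligodendrocyte precursor cells (OPCs), the dividing glia that give rise to myelin-forming oligodendrocytes, after electroporation with a scrambled siRNA (siSCR) or one that targets Hsc70 (siHsc70), the constitutive HSP70 chaperone encoded by Hspa8. In both groups the cells were wild type, came from the cortex of pups at postnatal days 2 to 4 by immunopanning with GalC and A2B5 antibodies, and were kept for 2 days with 60 nM of the thyroid hormone T3. The differentiation medium of both groups lacked PDGF-AA, bFGF and NT3, growth factors that the preceding growth medium contained. Each group was 1 library of bulk RNA, made with 1 siRNA sequence, and the labels do not say how many animals were pooled.

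The siRNA against Hsc70 was the only agent that set the groups apart, and its 19 bases are given here as the labels spell them, in DNA letters.
siHsc70: tcatgactgtcctcatcaa

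A cell passes from G1 into S phase when D-type cyclins with CDK4 or CDK6, and then cyclin E with CDK2, phosphorylate the RB family and release E2F transcription factors, which switch on replication genes. Genes of mitosis are switched on later and are commonly bound by the DREAM and MuvB complexes at promoter elements named CHR, often close to CCAAT boxes. CDK inhibitors of the CIP/KIP family (p21, p27, p57) and of the INK4 family hold these kinases back, and OPCs leave the cycle as they differentiate under T3.

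Total estimated counts were 19085626 in siSCR and 18130817 in siHsc70, and levels are given in CPM, that is counts per 1000000 library counts after TMM scaling of both libraries. With 1 library per group no test between groups is possible, the spread between cultures is unknown, and each difference describes these 2 libraries. A gene counted as measured when its mean was at least 1 CPM (13518 genes, and all 44 described here), and as at least 2-fold higher or lower when log2(CPM + 1) differed by at least 1. The fold given for a gene is the ratio of its CPM values with nothing added, with 95% exact (Clopper-Pearson) intervals that cover counting error only. The siRNA target Hspa8 was 2.76-fold lower (2.69 to 2.83) in siHsc70, at 507 CPM against 1399 CPM.

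The promoters of the 2 largest classes carried different elements, and 8 of them are printed to show this beside the values that follow. Of the 44 genes, 32 had a promoter in the RefSeq table (build GRCr8), which holds 250 bases before and 50 bases after each annotated start. The others were Aurkb, Ccna2, Ccnd1, Ccnd2, Ccne2, Cdc6, Cdk6, Cdkn1c, E2f1, Mcm4, Rrm2 and Tpx2. Both strands were searched for the CHR letters TTTGAA and TTCGAA, for CCAAT, and for the E2F letters TTTCCCGC, TTTGGCGC and TTTCGCGC. Matches can overlap, as where CHR and CCAAT letters share bases in Mki67 or where E2F letters on opposite strands interlock in Mcm2 and Mcm6. Each line below gives the 150 bases just before the annotated start, 5′ to 3′ on the gene's strand, with all matches in capitals. The first 4 are genes of mitosis and the next 3 are genes of S phase, and Aurka is shown because it held no match. Matches outside these 150 bases are not shown, such as CHR letters 215 and 175 bases before the start of Mcm2.
Cdc20, chr5:137255800-137255949, minus strand: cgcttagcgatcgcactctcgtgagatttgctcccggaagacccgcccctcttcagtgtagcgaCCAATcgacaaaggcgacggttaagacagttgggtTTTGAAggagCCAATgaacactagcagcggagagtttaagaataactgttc
Cdk1, chr20:19265143-19265292, plus strand: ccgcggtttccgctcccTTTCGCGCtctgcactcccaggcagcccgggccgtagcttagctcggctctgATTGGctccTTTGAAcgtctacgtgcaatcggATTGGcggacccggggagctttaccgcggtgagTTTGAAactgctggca
Mki67, chr1:199952594-199952743, minus strand: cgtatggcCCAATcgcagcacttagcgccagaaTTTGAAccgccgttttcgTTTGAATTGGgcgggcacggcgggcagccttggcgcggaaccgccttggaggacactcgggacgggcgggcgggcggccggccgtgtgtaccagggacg
Top2a, chr10:84473094-84473243, minus strand: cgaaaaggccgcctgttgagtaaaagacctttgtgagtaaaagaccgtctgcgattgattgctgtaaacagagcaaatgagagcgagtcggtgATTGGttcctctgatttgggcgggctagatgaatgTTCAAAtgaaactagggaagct
Mcm2, chr4:122918095-122918244, minus strand: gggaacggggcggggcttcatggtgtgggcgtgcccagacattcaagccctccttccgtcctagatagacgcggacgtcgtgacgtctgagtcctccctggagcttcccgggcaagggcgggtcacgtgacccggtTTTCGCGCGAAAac
Mcm6, chr13:42404353-42404502, minus strand: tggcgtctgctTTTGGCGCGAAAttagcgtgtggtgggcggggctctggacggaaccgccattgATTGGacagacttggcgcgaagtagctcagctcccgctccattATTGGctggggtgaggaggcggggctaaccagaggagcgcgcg
Tyms, chr9:120776084-120776233, minus strand: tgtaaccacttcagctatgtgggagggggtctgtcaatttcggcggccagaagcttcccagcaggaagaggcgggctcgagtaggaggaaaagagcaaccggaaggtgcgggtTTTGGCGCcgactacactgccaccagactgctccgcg
Aurka, chr3:181560770-181560919, minus strand: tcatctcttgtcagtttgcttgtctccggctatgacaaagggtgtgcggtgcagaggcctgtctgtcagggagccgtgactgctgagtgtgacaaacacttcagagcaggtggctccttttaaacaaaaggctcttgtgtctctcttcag

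Over the whole 300 bases, CHR letters were in 10 of 14 mitosis promoters and in 3 of 9 S phase promoters, against 13.5% of the 12114 promoters of measured genes and 19.7% of all 33469 promoters. E2F letters showed the opposite distribution, in 7 of 9 S phase promoters and 1 of 14 mitosis promoters (that of Cdk1), against 3.33% and 1.72% of the same backgrounds. CCAAT letters were in 11 of 14 mitosis and 6 of 9 S phase promoters, and in 37.2% and 37.5% of the backgrounds. Both RB family promoters (Rb1 and Rbl1) held E2F letters, whereas neither CHR nor E2F letters were in the 4 promoters of G1 cyclins and kinases or the 3 of CDK inhibitors. These letters are matches and not shown to be binding sites.

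**Figure D1:**
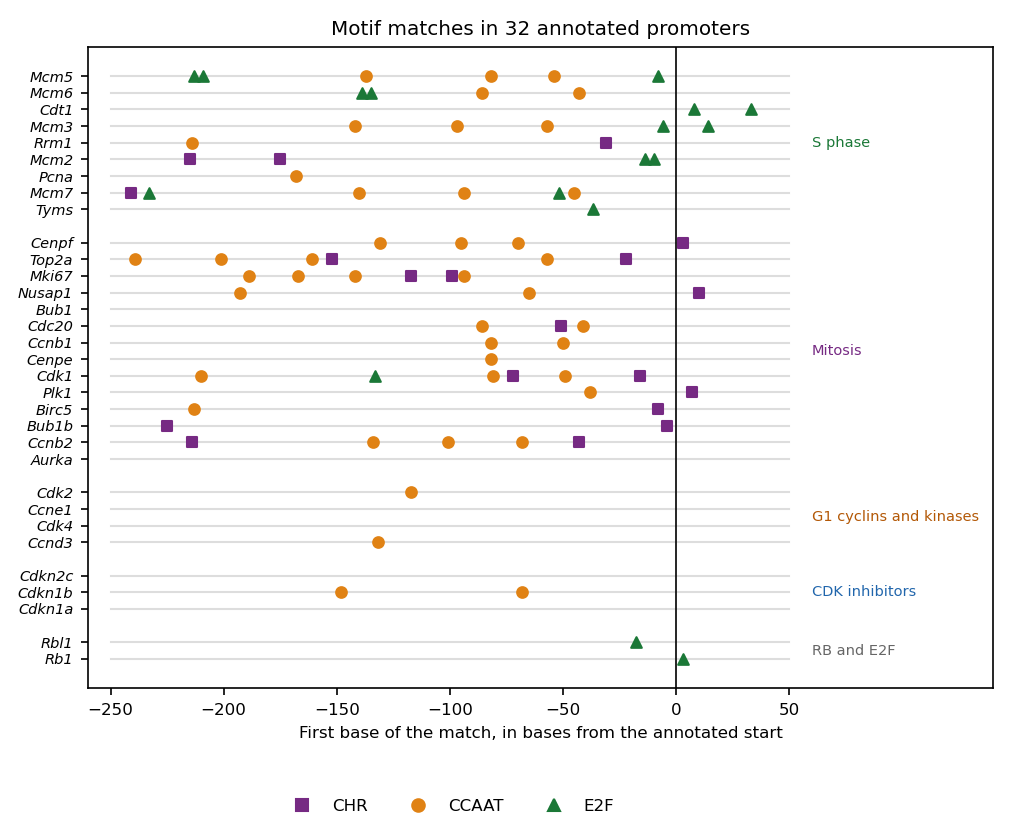
Positions of CHR (squares), CCAAT (circles) and E2F (triangles) letters in the 32 promoters, in bases from the annotated start (vertical line), 1 row per gene. Squares lie mostly in the mitosis block, in 10 of its 14 rows, and triangles mostly in the S phase block, in 7 of its 9 rows.

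In siHsc70, mitosis genes were lower (median log2 difference -0.82) by more than most replication genes (median -0.26), the G1 regulators differed in both directions, and 1 CDK inhibitor gene, Cdkn1c, was lower by more than any other of the 44. The 2-fold rule called 10 of the 44 genes lower and 0 higher, where it called 5.14% of all measured genes lower and 2.29% higher. By any amount, 36 of the 44 were lower and 8 higher, beside 50.3% and 49.7% of all measured genes. The counting interval lay below equal levels for 34 genes, above for 4 (Ccnd1, Ccnd3, Cdk6 and Cdkn1a) and included equal levels for 6. The deposited TPM values gave 11 lower genes, and the split over all genes was then 810 lower and 207 higher, against 695 and 310 on the CPM scale. With the deposited FPKM values, where the added 1 weighs more on low genes, 4 of the 44 were at least 2-fold lower. Over all genes 510 were then lower. Fewer dividing cells and less of these RNAs per cell cannot be told apart in bulk RNA.

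**Figure D2:**
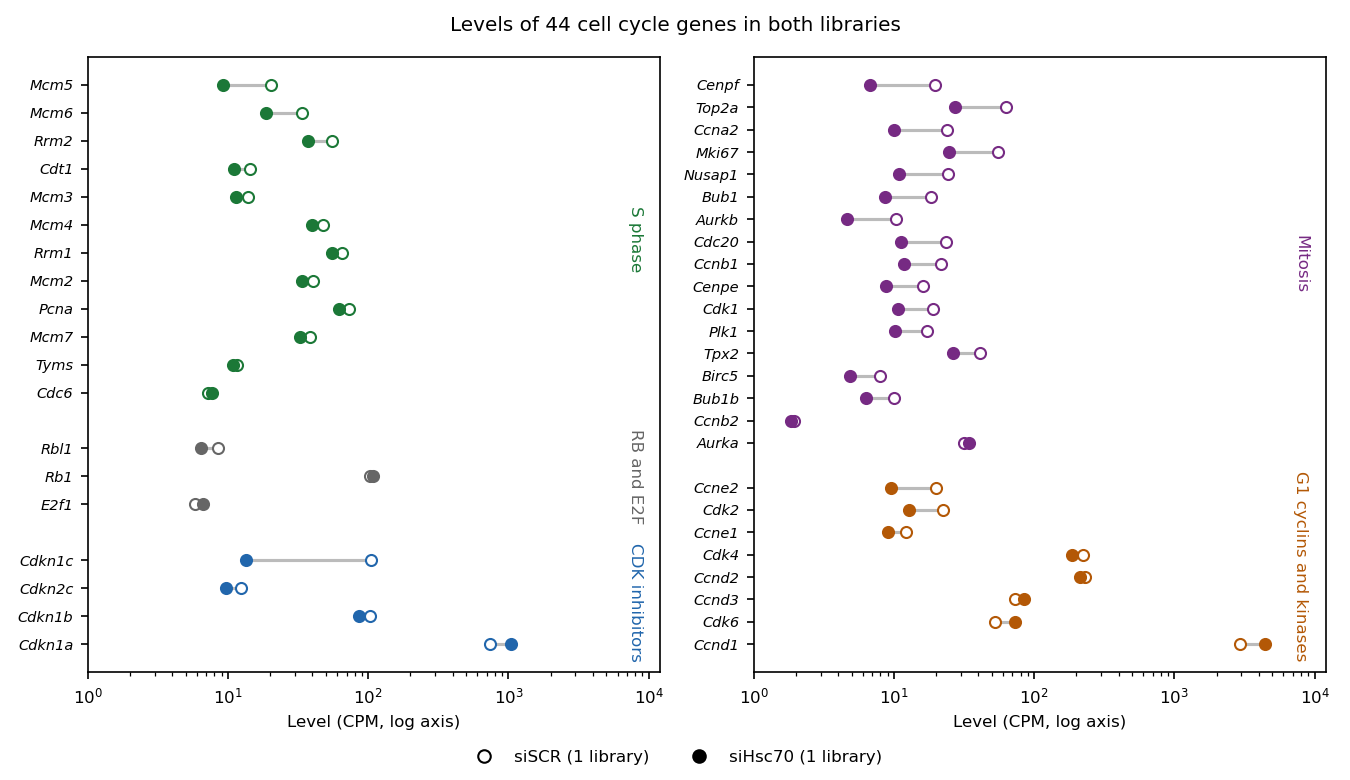
Level of each of the 44 genes in CPM (log axis) in the siSCR library (open circles) and the siHsc70 library (filled circles), by class, joined by a grey line. The open circle lies to the right for 16 of the 17 mitosis genes, all but Aurka, and Cdkn1c has the longest line, from 104 CPM to 13.3 CPM.

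Mitosis genes were lower as a class. The rule called 8 of the 17 genes lower (beside 5.14% of all measured genes), and 16 were lower by any amount (beside 50.3%). The median difference was -0.82 on the log2 scale, beside a median of -0.0034 over all measured genes, and the summed level was 405 CPM in siSCR against 219 CPM in siHsc70, 1.85-fold lower (1.78 to 1.93). The number at least 2-fold lower was 5 with upper-quartile scaling and 3 with the deposited FPKM, beside 623 and 510 over all genes.

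Among the genes of chromosome structure, Mki67, which coats mitotic chromosomes and is a general marker of cycling cells, was at 55.5 CPM in siSCR against 24.7 CPM in siHsc70, 2.25-fold lower (2.01 to 2.51). Top2a, the topoisomerase that untangles sister chromatids, was at 63.1 and 27.4 CPM. Birc5, encoding survivin of the chromosomal passenger complex, was at 8.004 and 4.84 CPM, 1.65-fold lower (1.26 to 2.18). Aurkb, the kinase of the same complex, was lower by 2.24-fold (1.73 to 2.93), from 10.3 to 4.62 CPM. All 4 were lower with counting intervals clear of equal levels.

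Kinetochore and checkpoint genes were lower too. Cenpf, a kinetochore-associated protein gene, had the largest fold of the class, at 19.5 CPM in siSCR against 6.73 CPM in siHsc70. Cenpe, the kinetochore kinesin, was at 16.2 and 8.79 CPM, 1.84-fold lower (1.51 to 2.24). Bub1, a spindle checkpoint kinase, was at 18.5 and 8.56 CPM, 2.16-fold lower (1.78 to 2.63). Its relative Bub1b, encoding BUBR1, was lower by 1.58-fold (1.25 to 2.01), from 9.93 to 6.28 CPM. Cdc20, the activator of the anaphase-promoting complex that these checkpoint proteins inhibit, was at 23.6 and 11.2 CPM, 2.11-fold lower (1.78 to 2.51). Other checkpoint genes, named after their values were seen, were not uniform. Bub3 was at 72.1 and 69.7 CPM and Mad2l1 at 13.6 and 12.3 CPM, both within counting error, whereas the kinase gene Ttk was at 11.2 and 5.45 CPM, 2.05-fold lower (1.61 to 2.63).

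The mitotic cyclins and CDK1 were lower together. Ccna2, the cyclin of S phase and mitotic entry, was at 23.9 CPM in siSCR against 10.0 CPM in siHsc70, 2.38-fold lower (2.002 to 2.85). Ccnb1, the main partner of CDK1 in mitosis, was at 21.5 and 11.7 CPM, 1.83-fold lower (1.55 to 2.17), and Cdk1 itself was at 18.9 and 10.7 CPM, 1.76-fold lower (1.48 to 2.11). On the deposited TPM scale, which corrects for transcript length, the ratio of Ccnb1 to Cdk1 was 0.405 in siSCR and 0.387 in siHsc70, so both transcripts kept nearly the same proportion. Ccnb2 had too few reads to place, with 36.8 estimated counts in siSCR and 32.6 in siHsc70. A row named as its pseudogene, Ccnb2-ps2, held 205 and 78.4 estimated counts, and added together they were 2.04-fold lower (1.62 to 2.57), so the value of Ccnb2 depends on how its reads were divided.

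Spindle genes divided into lower genes and 1 exception. Nusap1, a microtubule-bundling spindle protein gene, was at 24.3 CPM in siSCR against 10.8 CPM in siHsc70, 2.25-fold lower (1.90 to 2.68). Plk1, a kinase of mitotic entry and spindle assembly, was lower by 1.69-fold (1.40 to 2.03), at 17.3 and 10.2 CPM. Tpx2, which activates Aurora A at the spindle, was at 41.2 and 26.3 CPM, 1.57-fold lower (1.40 to 1.76). Aurka, encoding Aurora A, was at 31.8 and 34.1 CPM, a ratio of siHsc70 to siSCR of 1.08 (0.960 to 1.20), and its sign turned with the deposited TPM. The ratio of Aurka to Aurkb on the TPM scale was therefore 2.85 in siSCR and 7.11 in siHsc70. Aurka was also 1 of 2 mitosis promoters without any of the letters searched, and the other, Bub1, belonged to the lower genes. The median difference was -0.89 for the 10 mitosis genes with CHR letters and -0.82 for the 4 without. Whether these letters bear on the levels was not tested.

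**Figure D3:**
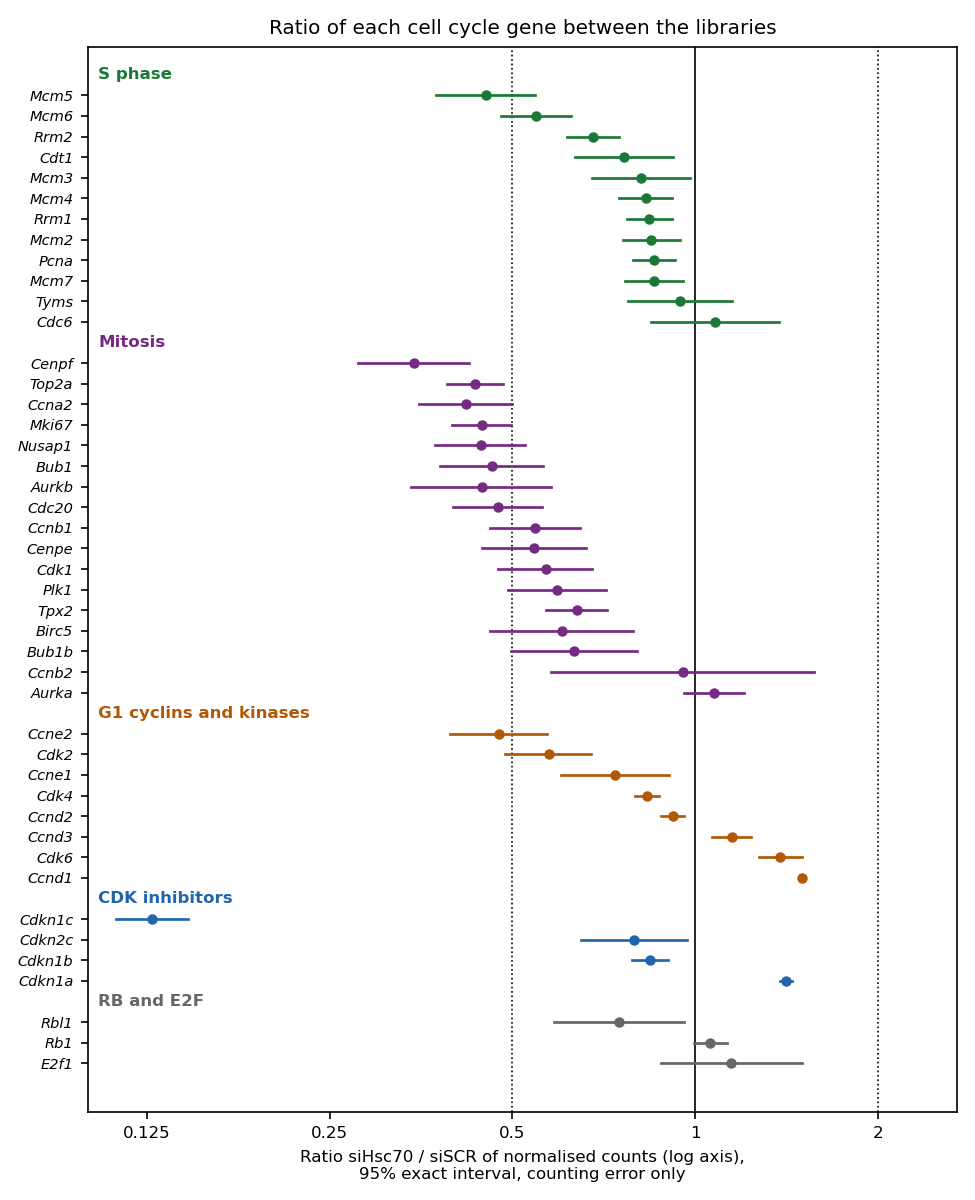
Ratio of siHsc70 to siSCR for each gene (log axis) with its 95% exact counting interval, by class. Solid and dotted lines mark equal levels and a 2-fold ratio in either direction. Among mitosis genes all intervals but those of Ccnb2 and Aurka lie below equal levels, and the interval of Cdkn1c lies far from those of the other genes.

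Replication genes were lower by less. Of 12 S phase genes, 1 (Mcm5) was at least 2-fold lower (0 with the deposited FPKM), beside 5.14% of all measured genes. By any amount 11 were lower, beside 50.3% of all measured genes. The class median was -0.26 and the summed level of the class was 420 CPM in siSCR against 329 CPM in siHsc70, 1.28-fold lower (1.23 to 1.32). This interval did not overlap that of the mitosis sum. As a measure within each library, the summed TPM of mitosis genes was 0.753 of that of S phase genes in siSCR and 0.548 in siHsc70.

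The MCM2-7 helicase, a ring of 6 different subunits that unwinds DNA at replication forks, was not uniform. Mcm5 was at 20.3 CPM in siSCR against 9.17 CPM in siHsc70, 2.21-fold lower (1.84 to 2.67), and Mcm6 was at 33.8 and 18.5 CPM, 1.83-fold lower (1.599 to 2.09). The other 4 subunits were lower by 1.17-fold to 1.23-fold, and their intervals lay wholly below those of Mcm5 and Mcm6. Mcm2 was at 40.0 and 33.9 CPM, Mcm3 at 13.9 and 11.3 CPM, Mcm4 at 47.8 and 39.6 CPM and Mcm7 at 38.1 and 32.7 CPM. On the TPM scale Mcm5 made up 10.2% of the 6 subunits' transcripts in siSCR and 6.14% in siHsc70. The highest subunit exceeded the lowest 3.40-fold in siSCR (Mcm7 over Mcm3) and 4.54-fold in siHsc70 (Mcm7 over Mcm5). Promoters of both Mcm6 and Mcm2 carry E2F letters, so these letters were found beside a larger and a smaller difference.

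Among the 44, the S phase genes other than the MCM2-7 subunits ranged from no difference beyond counting error to 1.47-fold lower (Rrm2). Cdt1, which loads the helicase, was at 14.4 CPM in siSCR against 11.01 CPM in siHsc70, 1.31-fold lower (1.09 to 1.58). Its loading partner Cdc6 was at 7.17 and 7.73 CPM, a difference within counting error whose sign turned with the deposited TPM. Pcna, the sliding clamp of DNA polymerases, was at 72.7 and 62.2 CPM, 1.17-fold lower (1.08 to 1.26).

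Within ribonucleotide reductase, which makes deoxynucleotides, the large subunit gene Rrm1 was at 65.1 CPM in siSCR against 54.8 CPM in siHsc70, 1.19-fold lower (1.09 to 1.29). The small subunit gene Rrm2, whose protein is tied to S phase, was at 54.8 and 37.2 CPM, 1.47-fold lower (1.34 to 1.63), and its interval did not overlap that of Rrm1. The ratio of Rrm1 to Rrm2 on the TPM scale was 0.994 and 1.23. Tyms, the thymidylate synthase gene, was at 11.5 and 10.8 CPM, within counting error. Outside the 44 and named after their values were seen, the thymidine kinase gene Tk1 was at 17.9 and 9.68 CPM, 1.85-fold lower (1.54 to 2.23), and the origin recognition gene Orc1 at 5.25 and 3.06 CPM, 1.72-fold lower (1.22 to 2.43).

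**Figure D4:**
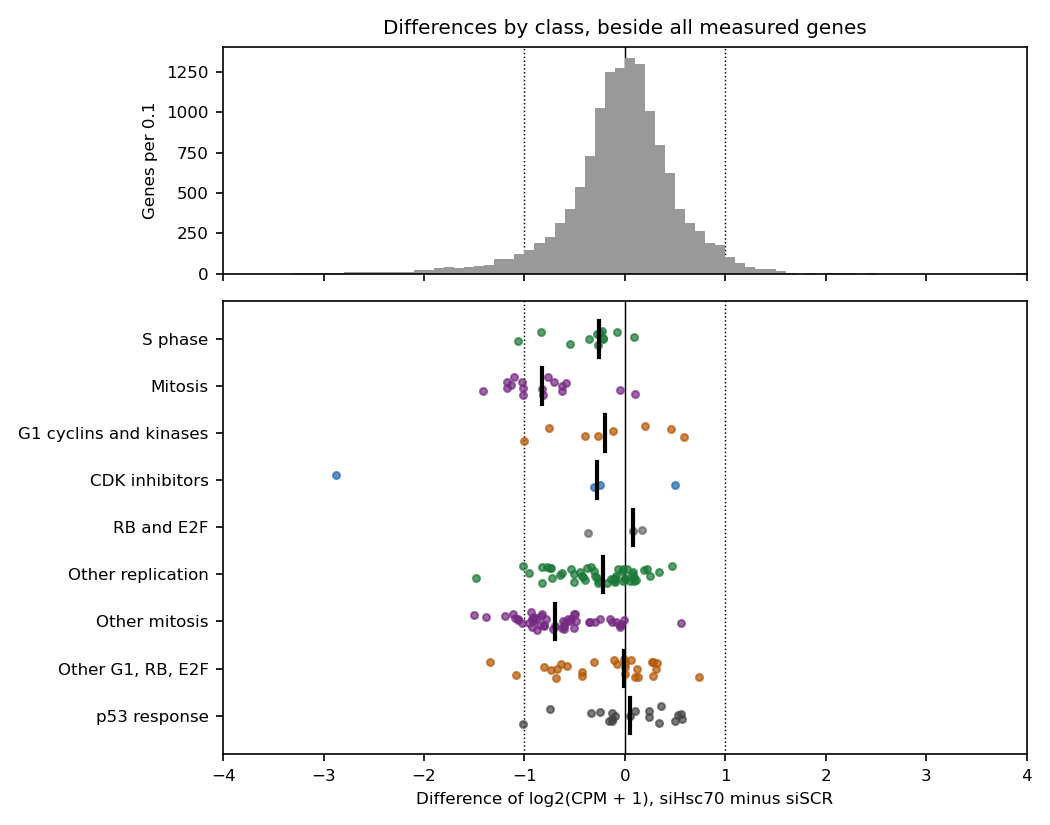
Differences of log2(CPM + 1), siHsc70 minus siSCR, for all 13518 measured genes (top, genes per bin of 0.1, differences beyond 4 counted in the end bins) and for each class and pathway list (bottom, 1 point per gene, black bar at the median, vertical jitter only). The mitosis medians lie at -0.82 and -0.70, those of S phase and other replication genes at -0.26 and -0.22, and 0 marks equal levels.

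The genes that control entry into S phase differed in both directions. Of 8 G1 cyclins and kinases, 0 passed the 2-fold rule, beside 5.14% of all measured genes called lower and 2.29% higher. By any amount 5 were lower and 3 higher, beside 50.3% and 49.7% of all measured genes. Counting intervals left out equal levels for all 8 genes, and the class median was -0.19. With DESeq2 size factors, with total counts alone, with a pseudocount of 0.1 or with the deposited TPM, 1 gene, Ccne2, crossed the 2-fold line. Their summed level was higher in siHsc70 by a ratio of 1.398 (1.38 to 1.41), and Ccnd1 made up most of that sum.

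Ccnd1, encoding cyclin D1, which couples growth factor signals to CDK4 and CDK6, was at 2954 CPM in siSCR against 4429 CPM in siHsc70, a ratio of 1.499 (1.48 to 1.52). By deposited TPM it was the 46th most abundant gene of the table in siSCR and the 30th in siHsc70. Ccnd2 was at 231 and 212 CPM, 1.09-fold lower (1.04 to 1.14), and Ccnd3 was at 73.2 and 84.0 CPM, a ratio of 1.15 (1.07 to 1.24). Ccnd1 held 78.7% of the D cyclin transcripts on the TPM scale in siSCR and 85.2% in siHsc70, while the share of Ccnd2 was 17.1% and 11.3%. Among the kinases that D cyclins bind, Cdk4 was at 222 and 185 CPM, 1.20-fold lower (1.15 to 1.26). Cdk6 was at 52.7 and 72.8 CPM, higher by a ratio of 1.38 (1.27 to 1.502). The level of Ccnd1 was 4.36 times that of Cdk4 on the TPM scale in siSCR and 7.88 times in siHsc70.

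The cyclin E and CDK2 genes, which act after the D cyclins, were lower. Ccne2 was at 19.9 CPM in siSCR against 9.45 CPM in siHsc70, 2.11-fold lower (1.75 to 2.54), which on the log2(CPM + 1) scale fell just short of the 2-fold line. Ccne1 was lower by 1.35-fold (1.10 to 1.66), from 12.3 to 9.06 CPM. The E cyclin genes were at nearly equal levels in siSCR, at 13.6 TPM for Ccne1 and 14.0 TPM for Ccne2, and at 9.18 and 6.02 TPM in siHsc70. Cdk2 was at 22.3 and 12.8 CPM, 1.74-fold lower (1.48 to 2.05). All 3 genes of this step were thus lower, whereas 3 of the 5 D cyclin and CDK4/6 genes were higher.

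**Figure D5:**
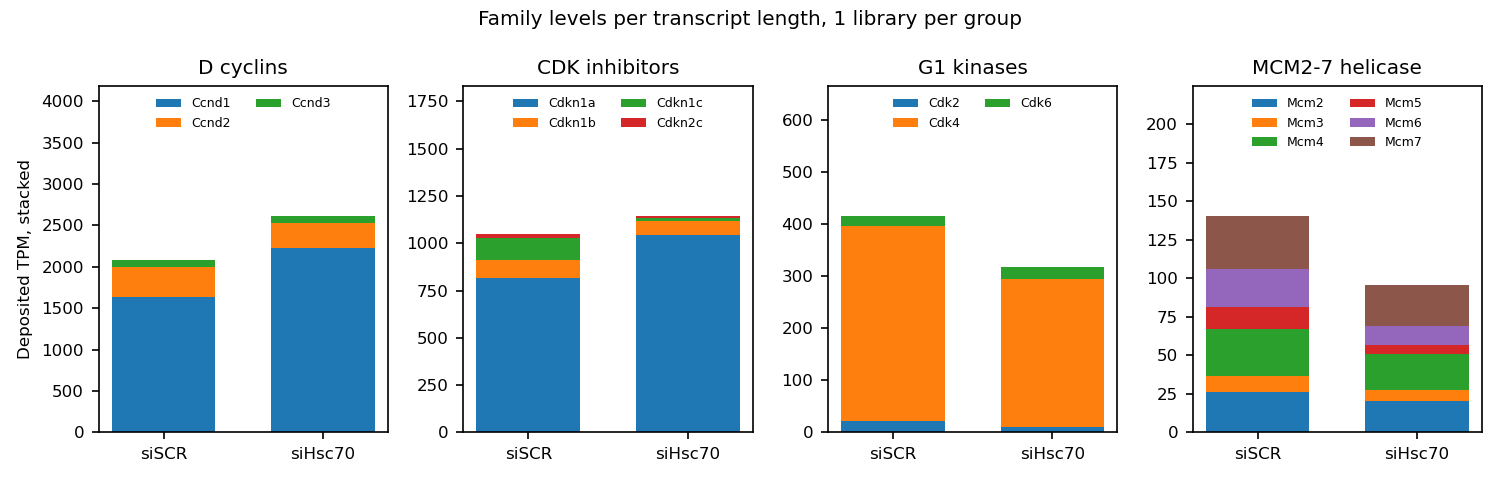
Deposited TPM of each gene stacked within its family in the siSCR and siHsc70 libraries, for D cyclins, CDK inhibitors, G1 kinases and the MCM2-7 helicase, each panel with its own axis from 0. Ccnd1 and Cdkn1a fill most of their bars in both libraries, and the Cdkn1c segment goes from 118 TPM to 13.7 TPM.

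The 4 CDK inhibitor genes differed in direction and size. Cdkn1c, encoding p57, a CIP/KIP inhibitor known for a role in cell cycle exit and in restraining differentiation of some glia, was at 104 CPM in siSCR against 13.3 CPM in siHsc70, 7.83-fold lower (6.84 to 8.99). That was the largest fold among the 44 genes. Cdkn1a, encoding p21, a CIP/KIP inhibitor and p53 target, was at 738 CPM in siSCR against 1042 CPM in siHsc70, a ratio of 1.41 (1.38 to 1.44). Cdkn1b, encoding p27, which limits OPC divisions, was at 102 and 86.1 CPM, 1.19-fold lower (1.11 to 1.27). Cdkn2c, encoding the INK4 inhibitor p18, was at 12.3 and 9.73 CPM, 1.26-fold lower (1.03 to 1.54). Only Cdkn1a of the 4 was higher in siHsc70, beside 49.7% of all measured genes. Only Cdkn1c passed the 2-fold rule, as lower, beside 5.14% of all measured genes called lower.

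The shares of the inhibitor transcripts differed between the libraries. The 4 transcripts summed to 1049 TPM in siSCR and 1145 TPM in siHsc70. Cdkn1a held 77.7% of the sum in siSCR and 91.1% in siHsc70, and Cdkn1c held 11.2% and 1.20%. These shares depend on the genes counted. With the INK4 locus genes Cdkn2a and Cdkn2b added, named after their values were seen, the sum was 1677 TPM against 2021 TPM. Cdkn1a then held 48.6% and 51.6%, Cdkn2b 26.8% and 33.3%, and Cdkn1c 7.01% and 0.678%. In siSCR the level of Cdkn1b was 0.830 of that of Cdkn1c, and in siHsc70 it was 5.45 times as high. The ratio of Ccnd1 to Cdkn1a, by contrast, was 2.01 and 2.14, as both genes were higher by similar ratios. Both counting intervals lay above equal levels.

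The 3 genes of the RB and E2F class had a median difference of 0.08 (-0.06 with the deposited TPM). Rb1, encoding the pocket protein that restrains E2F, was at 103 CPM in siSCR against 109 CPM in siHsc70, and E2f1, encoding an activating E2F, was at 5.77 and 6.62 CPM. Both differences were within counting error, and that of Rb1 turned sign with the deposited TPM. Rbl1, encoding the pocket protein p107, was at 8.52 and 6.39 CPM, 1.33-fold lower (1.04 to 1.71). Other E2F genes, outside the 44 and named here after their values were seen, differed more. E2f7 was 3.08-fold lower (2.24 to 4.32), E2f8 2.28-fold (1.41 to 3.79), E2f2 1.84-fold (1.21 to 2.85) and E2f3 1.57-fold (1.24 to 1.99). E2f5 was higher by a ratio of 1.24 (1.14 to 1.35), and E2f4 and E2f6 were within counting error.

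Lists of other genes of the pathway are given next, written from textbook knowledge but with earlier results of these data known. Of 49 other measured mitosis genes, the 2-fold rule called 8 lower (beside 5.14% of all measured genes) and 0 higher. By any amount 48 were lower (beside 50.3% of all measured genes), and the list median was -0.70. Ncapg, a condensin subunit gene, was at 15.5 CPM in siSCR against 4.84 CPM in siHsc70, 3.21-fold lower (2.52 to 4.13). Kifc1, a spindle kinesin gene, was at 17.4 and 6.06 CPM, Sgo1, a protector of sister chromatid cohesion, at 7.64 and 3.00 CPM, and the kinase gene Pbk at 10.2 and 4.28 CPM. The single gene that was higher, Wee1, named after its values were seen, encodes a kinase that inhibits CDK1 and was at 39.0 and 58.1 CPM, a ratio of 1.49 (1.35 to 1.64). A pseudocount of 0.1 gave 14 lower genes of this list, and the TPM values gave 15.

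Of 50 other replication genes, the rule called 2 lower and 0 higher, a share near the 5.14% of all measured genes called lower. By any amount 36 were lower, beside 50.3% of all, and the median was -0.22. The lower ones were Mcm10, a replication initiation gene, at 10.0 CPM in siSCR against 2.95 CPM in siHsc70, 3.40-fold lower (2.50 to 4.70), and the checkpoint adaptor gene Clspn, at 6.55 and 2.72 CPM, which was picked by name after its values were known. That number was 1 with upper-quartile scaling, with a minimum mean of 5 CPM or with the deposited FPKM.

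Of 27 other measured genes of G1 control, the rule called 2 lower and 0 higher, near the background of 5.14%. By any amount 15 were lower and 12 higher, near the 50.3% and 49.7% over all measured genes. Their median was -0.01, and 0.05 with upper-quartile scaling. E2f7, a repressor E2F, was at 8.58 CPM in siSCR against 2.78 CPM in siHsc70, 3.08-fold lower (2.24 to 4.32), and Cables1, a CDK-binding protein gene, was at 25.1 and 11.3 CPM, 2.21-fold lower (1.87 to 2.62). With the deposited FPKM 1 of the 2 passed. The INK4 gene Cdkn2b, encoding p15 and named after its values were seen, was at 471 and 785 CPM, a ratio of 1.67 (1.62 to 1.71), and so was higher alongside Cdkn1a. Of 19 measured genes of the p53 response, to which Cdkn1a also belongs, 1 passed the rule as lower, a share near the background of 5.14%, and 0 as higher. That gene was Bbc3, encoding the proapoptotic PUMA, at 45.3 and 22.0 CPM, and it missed the rule with upper-quartile scaling. The list's median was 0.05 (-0.08 with the deposited TPM), with counting intervals above equal levels for 9 genes and below for 6.

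The labelled cell type was checked on its markers, as other dividing cells could hold part of these RNAs. All 6 precursor markers were measured, with a summed level of 4715 CPM in siSCR against 3683 CPM in siHsc70. Among them the OPC growth factor receptor gene Pdgfra was at 213 and 119 CPM. Of the 6, 5 were lower and only Olig1 was higher, at 1207 and 1359 CPM. The 2-fold rule called 2 lower, beside 5.14% of all measured genes. These were Cspg4, at 62.5 and 29.2 CPM, and Lhfpl3, at 633 and 167 CPM. All 6 markers of newly formed oligodendrocytes were measured and summed to 3212 and 566 CPM, and the 6 of myelinating oligodendrocytes to 5118 and 1001 CPM. Of the myelinating markers, 5 were at least 2-fold lower (beside 5.14% of all measured genes), and Mog was within counting error at 10.6 and 10.5 CPM. Markers of other cell types were present as well. The 8 astrocyte markers summed to 3786 and 3257 CPM, with Gfap at 1416 and 667 CPM and Slc1a3 at 1522 and 1629 CPM. The lower sum went with Gfap, Aqp4 and Aldoc, while the other 5 astrocyte markers were higher in siHsc70 and the list median was 0.19. The 8 neuronal markers summed to 745 and 502 CPM, and Map2 carried most of that sum, at 526 and 340 CPM. Of the 8, 5 were lower and 3 (Snap25, Tubb3 and Stmn2) higher in siHsc70, with a list median of -0.61. Fibroblast and mural markers summed to 40.7 and 101 CPM. Of 8, 4 were measured, and Col1a1 carried most of the sum, at 24.3 and 73.8 CPM, a ratio of 3.04 (2.74 to 3.39). Col1a2 was at 7.02 and 13.7 CPM and Pdgfrb at 6.39 and 10.6 CPM. The remaining measured marker, Col3a1, was not higher, at 2.29 and 1.83 CPM, a difference within counting error. Acta2 and Dcn were below 1 CPM in both libraries and Lum was at 0 counts in siHsc70. Of 8 microglial markers 1 was measured (sum 4.57 and 5.95 CPM, Aif1 at 0 counts in siSCR), and of 6 endothelial markers 2 were (sum 8.99 and 5.45 CPM, Cdh5 at 0 counts in siHsc70). A count of 0 allows up to 0.156 CPM in siSCR against 0.167 CPM in siHsc70, where the limit is 3 counts. The part of these cell types in the lower mitosis and Cdkn1c levels was not tested.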

How the data were processed

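One deposited table of the whole series was used, with 6 value columns tied to their library by the siRNA in the column name. Per the file headers, these are estimated counts, FPKM (scaled for length and library size) and TPM. The gene IDs are rat, although the build named by the submitters' processing notes is mm39, a mouse genome. Which program, annotation and strand option made the table is not given in the sources used here. 16783 of 18049 IDs were found in RefSeq (GRCr8), including all 44 genes here with the same symbol, and coordinates are given only for the printed promoters. Counts that are not whole occur for 6 of the 44 genes (Ccna2, Ccnb1, Ccnb2, Cdc6, Cdk6, Mki67), whose reads may be shared with other rows.

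Estimated counts were rounded and scaled over the whole table with TMM factors (edgeR 4.0.16 in R 4.3.3), 1.01 for siSCR and 0.992 for siHsc70. A pseudocount of 1 CPM understates differences of low genes. Intervals used scipy 1.17.1 and were tested on simulated Poisson counts only. Such counts hold neither spread between cultures nor reads shared between rows. PCR copies are not independent molecules. Genes named by rule were the 44, Hspa8, and up to 4 genes per other list at least 2-fold different with a mean of at least 5 CPM, beside cell type markers. Further genes of the other lists were named outside this rule, after their values were seen, as stated where they appear. The 44 genes and the lists were chosen with earlier results of these data known. Results were recomputed under 10 other settings, DESeq2 1.42.0 size factors among them, and 1 was added after seeing the data.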

Additional observations from a re-analysis of the deposited data

How the results depend on the processing

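No paired analysis was possible because each group has 1 library, and for the same reason no library could be left out. The alternatives were other scalings, pseudocounts, minimum means, sizes of change and deposited units, and pseudogene rows added to their gene. The added one, TPM centred on the median of all measured genes, was chosen after seeing the data. Under every setting run, the median stayed below 0 for mitosis (-0.92 to -0.76), S phase (-0.39 to -0.19), G1 cyclins and kinases (-0.34 to -0.13) and CDK inhibitors (-0.41 to -0.22), and Cdkn1c stayed between -3.01 and -2.82. The TPM shifted the median of all genes to -0.13, and with it Aurka, Cdc6 and Rb1 changed sign, to -0.04, -0.05 and -0.06. Centred, none of the 44 did. The TPM also turned the median of the RB and E2F class to -0.06 and that of the p53 response list to -0.08, and upper-quartile scaling turned that of other G1 genes to 0.05.

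With upper-quartile scaling the S phase median was -0.19, 5 mitosis genes were at least 2-fold lower instead of 8, 1 other replication gene instead of 2, and 0 p53 response genes instead of 1. A pseudocount of 0.1 made 518 genes of the table at least 2-fold higher instead of 310, and other mitosis genes had a median of -0.85 with 14 lower. With the TPM, 810 genes of the table were lower, and 15 other mitosis genes. DESeq2 size factors, total counts, the pseudocount of 0.1 and the TPM each gave 1 lower G1 cyclin or kinase gene instead of 0. A minimum mean of 5 CPM left 1 lower other replication gene. With the FPKM, 510 genes of the table were lower and 203 higher. Lower were 4 of the 44, 0 S phase, 3 mitosis, 1 other replication and 1 other G1 gene. With a 1.5-fold rule, 1627 genes of the table were lower and 1304 higher. Lower were then 20 of the 44, 2 S phase, 15 mitosis, 2 G1, 11 other replication, 30 other mitosis, 7 other G1 and 2 p53 response genes, and 1 other G1 gene was higher. Depth limits Ccnb2 most, with under 40 counts per library. The cause of these changes was not tested.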
